A study of Nothobranchius furzeri with 8 samples.

Results

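The nuclear leucine tRNAs of the killifish brain are described here as 5 isoacceptors, tRNAs that carry leucine but differ in the anticodon. They were chosen by name, as every leucine tRNA outside the mitochondrial set, and are 5 of the 49 nuclear anticodons in the data. The files write anticodons in DNA letters, so the isoacceptors are tRNA-Leu-AAG, tRNA-Leu-CAA, tRNA-Leu-CAG, tRNA-Leu-TAA and tRNA-Leu-TAG. They stand for 25 of the 289 nuclear tRNA genes in the deposited table. Reads were also counted for 6 leucine transcripts or clusters of near-identical transcripts out of 66. tRNA-Leu-TAG was split into TAG-1 and the cluster TAG-2/3, the genes of tRNA-Leu-CAA stood as 1 cluster, CAA-1/2/3, and the other isoacceptors were 1 transcript each.

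A tRNA reads a codon of the messenger RNA through its anticodon and brings the matching amino acid, which an aminoacyl-tRNA synthetase has attached to its 3′ end. Leucine has 6 codons. tRNA-Leu-CAG reads CUG, tRNA-Leu-TAG reads CUA and can wobble to CUG, and tRNA-Leu-AAG, whose first anticodon base is edited to inosine, reads CUU and CUC. tRNA-Leu-TAA reads UUA and tRNA-Leu-CAA reads UUG. The codons named are the main ones, and other wobble pairings are not listed. Leucine tRNAs have a long variable arm, a feature shared with serine tRNAs, and the cytosolic leucyl-tRNA synthetase charges all the nuclear isoacceptors while another enzyme serves the mitochondrion.

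tRNA-seq was run on whole brains of single African turquoise killifish (*Nothobranchius furzeri*), a short-lived vertebrate, from fish of the wild-derived strain MZM-0410. The 4 young fish were 5 weeks post hatching (wph) and the 4 old fish 39 wph, and each age had 2 males and 2 females. RNA was kept mildly acidic so that amino acids stayed on their tRNAs, then oxidized and β-eliminated, which removes the last base of a tRNA without an amino acid. A charged tRNA is therefore read with the end CCA and an uncharged one with CC, while reads ending in C, or with none of these bases (called Absent), are shorter still. In bulk tissue, fewer cells with a tRNA and less of it per cell cannot be told apart.

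Between 40290 reads (young male 2) and 159139 reads (old female 2) fell on the leucine tRNAs of a brain, out of 717858 to 3112101 in all, and the table of 3′ ends held 99.2 to 99.5% of them. Each leucine transcript had 670 CCA and CC reads or more in every brain, and the widest 95% Wilson interval of a charged share was ± 3.71 points, in TAG-2/3. Intervals cover counting error only, since PCR copies are not independent molecules. Among the old brains, the females lay at opposite ends in leucine charging and in C ends. Old female 2 was the most charged, with the fewest C ends, and the other old female the least charged, with the most. For pool shares, leucine charging, C ends and the distance to mitochondrial leucine charging, results are given with and without old female 2. For leucine charging and C ends, the difference without the other old female is given too.

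Leucine tRNAs made up a smaller share of the nuclear tRNA reads in old brains, and tRNA-Leu-CAG made up −0.568 points of that difference. The share was 6.31, 6.14, 6.46 and 6.01% in young male 1, male 2, female 1 and female 2, and 5.32, 5.62, 5.53 and 5.66% in the old brains in the same order, which is kept in every list of values below. All 4 old brains lay under all 4 young ones. The mean went from 6.23% ± 0.198 to 5.53% ± 0.151 (SD, n = 4 each), a difference of −0.699 points, or −11.2% of the young mean (two-sided exact permutation test, p = 0.0286, the smallest that 70 relabellings allow). Counted the same way, 4 of 22 amino acid classes (18.2%) had ages that did not overlap, with selenocysteine and initiator methionine as classes of their own. Leucine and threonine were lower in old brains, and histidine and tyrosine higher. After Benjamini-Hochberg adjustment over the 22 classes, the exact permutation p of leucine was 0.157. Without tRNA-Leu-CAG, the other isoacceptors together held 4.24% ± 0.115 and 4.11% ± 0.243 of the nuclear reads, a difference of −0.131 points that was within the spread between brains (exact permutation p = 0.371). Scaled to the reads of a synthetic spike-in tRNA in place of the nuclear total, leucine reads differed by −0.04 on the log2 scale (exact permutation p = 0.886). The difference is therefore stated only relative to the other nuclear tRNAs of the same brain. A test not passed does not show that the amount per spike-in read was the same at both ages.

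Reads of tRNA-Leu-CAG, the CUG-reading isoacceptor, were 2.11, 1.86, 2.09 and 1.92% of the nuclear reads in young brains and 1.42, 1.46, 1.11 and 1.71% in old brains. Every old brain was below every young one, with old female 1 the lowest and old female 2 the nearest to the young. These values are relative to the other nuclear tRNAs of the same brain, and amounts per spike-in read are not given by isoacceptor. In edgeR's quasi-likelihood test the log2 change was −0.48 (SE 0.11, adjusted p = 0.0309), and it was 1 of 3 calls among the 47 nuclear anticodons tested (6.38%). The call was lost without young male 1, young male 2, young female 1 or old male 2 (edgeR adjusted p 0.0820, 0.0505, 0.0654 and 0.0896), although the estimate stayed between −0.58 and −0.38 in all 8 fits that left out a brain. The other isoacceptors passed no such test. tRNA-Leu-AAG, which reads CUU and CUC, held 1.73, 1.95, 1.97 and 1.88% in young brains and 1.63, 1.81, 2.13 and 1.63% in old brains, and the ages overlapped (log2 change −0.06, edgeR adjusted p = 0.652). tRNA-Leu-CAA ranged from 0.932 to 1.04% and tRNA-Leu-TAG from 0.860 to 0.972% over the 8 brains, with log2 changes of 0.02 and −0.02 (edgeR adjusted p = 0.837 for both). tRNA-Leu-TAA was the rarest, at 0.310 to 0.516%, with an estimate of −0.17 (log2, SE 0.14, edgeR adjusted p = 0.422).

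The 2 products of tRNA-Leu-TAG differed from each other. TAG-2/3, the minor cluster, was 11.1, 11.8, 11.3 and 10.1% of the tRNA-Leu-TAG reads in young brains and 7.82, 7.45, 5.48 and 8.90% in old brains. The ages did not overlap, and the share went from 11.05% ± 0.711 to 7.41% ± 1.43 (SD, n = 4 each; two-sided exact permutation p = 0.0286). Since TAG-1 is the complement, its share mirrors this. Across the 37 transcripts that share an anticodon with another, 6 (16.2%) had ages that did not overlap, and these 2 were among them. As a share of all nuclear reads, TAG-2/3 was estimated by edgeR at −0.61 on the log2 scale (SE 0.13, adjusted p = 0.0193), and TAG-1 at 0.03 (SE 0.06, adjusted p = 0.732). With CAG-1, estimated at −0.49 on the log2 scale (edgeR adjusted p = 0.0257), TAG-2/3 gave 2 of the 6 calls among 66 transcripts (9.09%). The call of TAG-2/3 was lost without young male 2, young female 1, old male 1 or old male 2 (edgeR adjusted p 0.0608, 0.0729, 0.0639 and 0.0560), and that of CAG-1 held only without old female 1 or old female 2. Reads of near-identical transcripts can be assigned to the wrong one, so the split within tRNA-Leu-TAG is less certain than its sum. In every brain, reads ending in C were a smaller part of TAG-2/3 than of TAG-1. In old female 1, where TAG-2/3 held 5.48%, they were 16.95 and 33.2%. The part of such ends in the split was not tested.

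Within the leucine pool, tRNA-Leu-CAG lost share in old brains and tRNA-Leu-CAA gained it. Of all leucine reads, tRNA-Leu-CAG took 33.4, 30.3, 32.4 and 31.9% in young brains and 26.7, 26.0, 19.99 and 30.3% in old brains. Young male 2 (95% Wilson interval 29.9 to 30.8%) and old female 2 (30.1 to 30.5%) could not be told apart at this depth, so the 2 ages touched. The mean went from 32.0% ± 1.27 to 25.7% ± 4.28 (SD, n = 4 each), which edgeR estimated as −0.31 on the log2 scale (SE 0.10, adjusted p = 0.0453). tRNA-Leu-CAA, which reads UUG, took 16.5, 15.4, 15.4 and 15.5% in young brains and 18.5, 18.2, 18.5 and 16.8% in old brains. The lowest old brain, old female 2, lay just above the highest young brain, young male 1. Its mean went from 15.7% ± 0.533 to 18.0% ± 0.832, or 0.19 on the log2 scale (edgeR SE 0.05, adjusted p = 0.0305). Shares of one pool sum to a whole, and with tRNA-Leu-CAG taken out of the total tRNA-Leu-CAA held 23.1% ± 1.15 and 24.2% ± 0.900 of the rest (exact permutation p = 0.171).

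**Figure D1:**
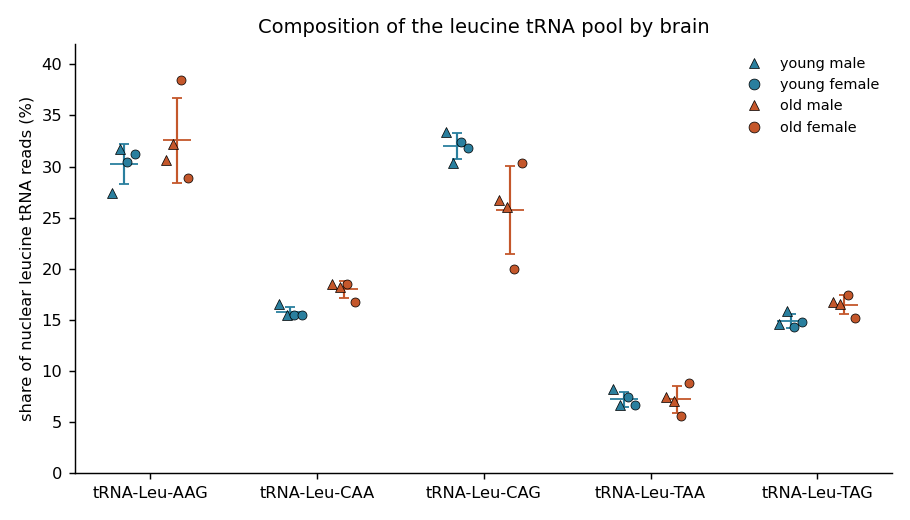
Share of the nuclear leucine tRNA reads of a brain (%, vertical axis from 0) taken by each isoacceptor, for 4 young and 4 old brains. Points are brains (triangles male, circles female) and bars give the mean and SD of an age. tRNA-Leu-CAG is at 30.3 to 33.4% in young and 19.99 to 30.3% in old brains, and tRNA-Leu-CAA at 15.4 to 16.5% and 16.8 to 18.5%.

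The other shares of the pool did not pass the test. tRNA-Leu-TAG had 14.6, 15.8, 14.3 and 14.7% in young brains and 16.7, 16.5, 17.4 and 15.2% in old brains, where only old female 2 lay within the young range (log2 change 0.15, SE 0.06, edgeR adjusted p = 0.101). tRNA-Leu-AAG ranged from 27.4 to 31.7% in young brains and from 28.9 to 38.5% in old brains (log2 change 0.11, edgeR adjusted p = 0.486). tRNA-Leu-TAA ranged from 6.65 to 8.17% and from 5.60 to 8.83% (log2 change 0.00, edgeR adjusted p = 0.987). Among the 37 anticodons of amino acids with several anticodons, 9 (24.3%) were called, so that 2 calls of 5 in leucine stand against a high background. Of those 9, 5 belong to amino acids with exactly 2 anticodons, where the tests mirror each other. By the measured values alone, the ages did not overlap in 9 of the 37 (24.3%), tRNA-Leu-CAA and tRNA-Leu-CAG included. Both leucine calls were lost when any single brain but old female 2 was left out, and 3 isoacceptors (tRNA-Leu-CAA, tRNA-Leu-CAG and tRNA-Leu-TAG) were called without old female 2. The number called over all 37 anticodons in that fit is not given, so the 3 calls cannot be read as a trait of leucine. The leading isoacceptor was tRNA-Leu-CAG in young male 1, both young females and old female 2, and tRNA-Leu-AAG in the other 4 brains. tRNA-Leu-TAA was the last in all 8.

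The composition of the pool also varied with how many tRNA ends had been shortened to C. Reads ending in C were 4.87, 8.58, 6.35 and 9.20% of the nuclear tRNA reads in young brains and 12.6, 12.1, 24.6 and 6.71% in old brains. Old female 1, with the most C ends, had the lowest share of tRNA-Leu-CAG, and old female 2, with the fewest among the old, had the highest old share. Over the 8 brains the share of tRNA-Leu-CAG and the C ends had a Pearson's r of −0.960 (permutation p = 9.4e-04, adjusted over 37 anticodons 0.0128) and a Spearman's rho of −0.881 (permutation p = 0.00724, adjusted 0.0670). Without young male 1 and old female 1, the brains farthest from the median, r was −0.870. For tRNA-Leu-TAG r was 0.859 (permutation p adjusted 0.0128), rho was 0.905 (adjusted 0.0563) and r without those brains was 0.860. For tRNA-Leu-AAG r was 0.942 (permutation p adjusted 0.0207) and rho 0.810 (adjusted 0.115), but r without those brains was 0.558, so that this relation rests on them. These 3 leucine isoacceptors were among 5 of 37 anticodons (13.5%) whose adjusted permutation p for r was below 0.05. tRNA-Leu-CAA (r 0.689) and tRNA-Leu-TAA (r −0.760) were not among them (permutation p adjusted 0.0788 and 0.0842). The shares of the leucine pool sum to a whole, so the relations within leucine are not independent of one another. With tRNA-Leu-CAG taken out of the total, tRNA-Leu-TAG held 21.85, 22.7, 21.2 and 21.6% of the rest in young brains. In old brains it held 22.8, 22.3, 21.8 and 21.8%. tRNA-Leu-AAG held 41.1 to 45.9% of the rest in young and 41.5 to 48.1% in old brains. The relation of these shares of the rest to C ends was not tested. Each age has too few brains for a relation of its own. The permutations mixed the ages, so these relations and age cannot be told apart. Both measures come from the same libraries, and the part of C ends in the age difference was not tested. A comparison by end class follows.

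**Figure D2:**
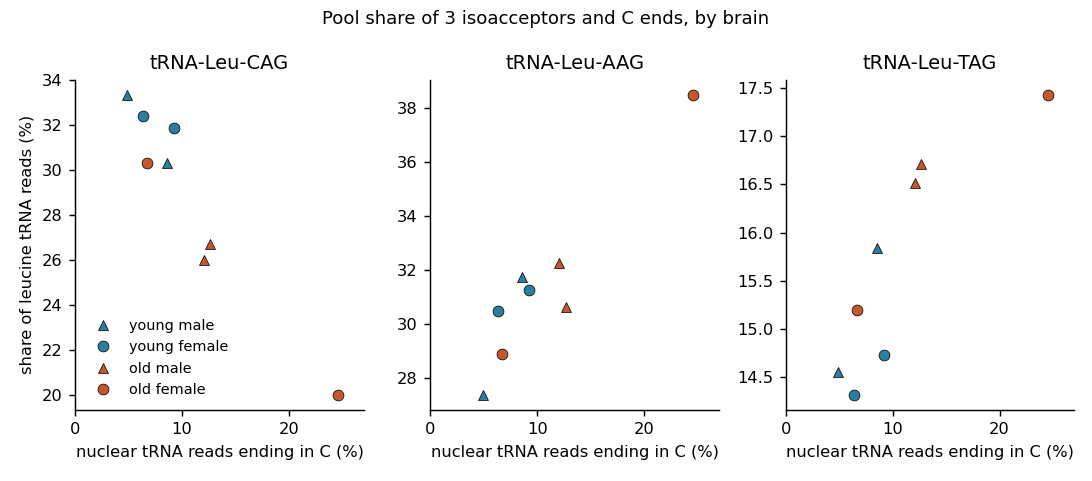
Share of the leucine reads (%, vertical axes not from 0) taken by tRNA-Leu-CAG, tRNA-Leu-AAG and tRNA-Leu-TAG against the nuclear tRNA reads ending in C (%), with a point for each of the 8 brains. Old female 1, at 24.6% C ends, has the lowest share of tRNA-Leu-CAG (19.99%) and the highest share of tRNA-Leu-AAG (38.5%). The shares belong to one pool that sums to a whole, so the panels are not independent.

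Among CCA reads alone, which come from charged and untrimmed tRNAs, the lower share of tRNA-Leu-CAG in old brains was smaller and far more even. It held 34.3, 33.3, 33.9 and 33.6% of the leucine CCA reads in young brains and 29.6, 29.7, 30.1 and 31.5% in old brains. The ages were clearly separate, and old female 1, at 19.99% of all leucine reads, was at 30.1% here, beside the other old brains. The mean went from 33.8% ± 0.436 to 30.2% ± 0.886 (SD, n = 4 each), or −0.16 on the log2 scale (edgeR SE 0.04, adjusted p = 0.00930). The call held in all 8 fits that left out a brain. Over the 37 anticodons tested this way 8 (21.6%) were called, tRNA-Leu-CAG as the only leucine isoacceptor, and in 7 of 37 (18.9%) the ages did not overlap. tRNA-Leu-CAA was the other leucine isoacceptor without overlap, at 16.3, 14.8, 15.4 and 14.9% of the CCA reads in young brains and 17.5, 17.5, 16.8 and 16.3% in old brains, where young male 1 and old female 2 almost met (log2 change 0.15, SE 0.06, edgeR adjusted p = 0.0896). tRNA-Leu-TAA had 8.15% ± 0.404 and 9.17% ± 0.820 (log2 change 0.17, SE 0.08, edgeR adjusted p = 0.124). tRNA-Leu-AAG stayed between 26.4 and 29.4% of the CCA reads in the 8 brains (log2 change 0.01, edgeR adjusted p = 0.920).

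Among uncharged CC reads, tRNA-Leu-CAG held 33.3, 30.2, 32.2 and 32.9% in young brains and 27.4, 26.0, 21.6 and 30.1% in old brains. Among reads ending in C it held less in every brain, 24.5, 16.2, 22.5 and 20.4% in young and 18.2, 17.2, 9.85 and 21.7% in old brains, and the ages overlapped (exact permutation p = 0.257). tRNA-Leu-AAG led the C reads instead, with 31.6 to 43.8% in young and 35.4 to 46.6% in old brains. The share of tRNA-Leu-CAG differed most between all reads and CCA reads in old female 1. In that brain, 50.03% of the CCA and CC reads of tRNA-Leu-CAG were CCA reads, against 41.8% for all leucine tRNAs. A share of CCA reads thus depends on charging as well as on trimming, and these were not told apart.

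**Figure D3:**
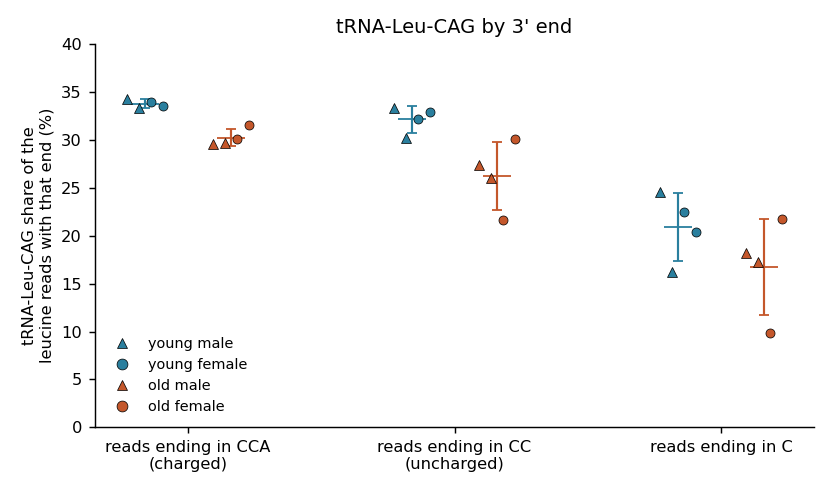
Share of tRNA-Leu-CAG (%, vertical axis from 0) among the leucine reads ending in CCA, in CC and in C, with points for the 8 brains and bars for the mean and SD of each age (n = 4). Among CCA reads the young brains lie at 33.3 to 34.3% and the old at 29.6 to 31.5%, while among C reads the ages overlap.

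The charged share of the leucine tRNAs, CCA over CCA plus CC reads, was 69.9, 60.03, 64.8 and 59.1% in young brains and 50.7, 53.5, 41.8 and 65.5% in old brains. Old males 1 and 2 and old female 1 lay below every young brain, while old female 2 exceeded all young brains but young male 1. The means were 63.5% ± 4.97 and 52.9% ± 9.80 (SD, n = 4 each), a difference of −10.6 points that did not pass the two-sided exact permutation test (p = 0.114). It was −14.8 points once old female 2 was left out (exact permutation p = 0.0286, the smallest possible then). Since the remaining old brains all lay below every young brain, this p follows from which brain was left out. Without old female 1 the difference was −6.90 points. The spread between brains was far above the counting error, since the brain with the fewest leucine reads, young male 2, had a 95% Wilson interval of 59.5 to 60.5%. Charging of leucine tRNAs was close to that of the other nuclear tRNAs of the same brain, by −0.918 ± 0.986 points in young and −1.13 ± 2.18 points in old brains, and the ages did not differ beyond their spread in this (exact permutation p = 0.971).

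The isoacceptors kept nearly the same order of charging in each brain. tRNA-Leu-TAA, the UUA-reading isoacceptor, was the most charged in 8 of 8 brains, at 74.6, 68.1, 72.3 and 70.2% in young and 63.5, 64.0, 55.7 and 74.8% in old brains. tRNA-Leu-AAG was the least charged in 8 of 8, at 68.0, 57.3, 61.5 and 56.5% in young and 47.9, 49.8, 35.8 and 63.0% in old brains. Old female 1 was the lowest and old female 2 the highest old brain for all 5 isoacceptors. From highest to lowest, the order was tRNA-Leu-TAA, tRNA-Leu-CAG, tRNA-Leu-CAA, tRNA-Leu-TAG and tRNA-Leu-AAG in 6 of 8 brains. Within a brain, tRNA-Leu-TAA exceeded tRNA-Leu-CAG by 7.33 ± 2.43 points (SD, n = 8) and tRNA-Leu-CAG exceeded tRNA-Leu-CAA by 3.38 ± 2.998 points, each in 8 of 8 brains. This order leaves out C and Absent reads. With them in the total, CCA reads in old female 1 were 41.01% for tRNA-Leu-CAG and 40.6% for tRNA-Leu-TAA. In every other brain tRNA-Leu-TAA exceeded tRNA-Leu-CAG on that measure too. tRNA-Leu-CAA and tRNA-Leu-TAG were neighbours that did not differ beyond their spread (0.489 ± 1.33 points, higher in 6 of 8), and tRNA-Leu-TAG exceeded tRNA-Leu-AAG by 1.72 ± 0.972 points in 8 of 8. The distance from the most to the least charged isoacceptor was 6.62, 10.9, 10.8 and 13.7 points in young brains and 15.6, 14.2, 19.9 and 11.7 points in old brains. It was widest in old female 1, the least charged brain, and narrowest in young male 1, the most charged.

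**Figure D4:**
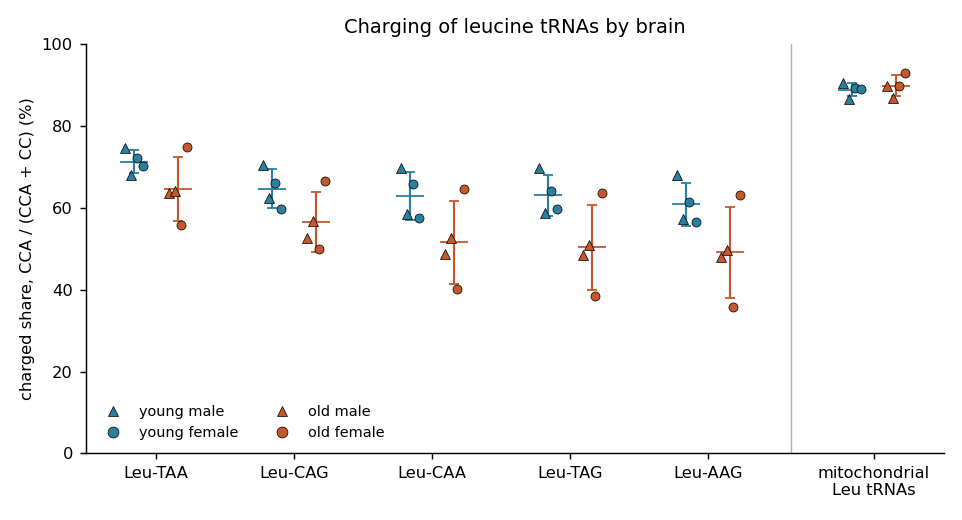
Charged share, reads ending in CCA over reads ending in CCA or CC (%, vertical axis from 0 to 100), of the 5 nuclear leucine isoacceptors and of the mitochondrial leucine tRNAs. Points are brains and bars give the mean and SD of each age (n = 4), and the old brains spread over 35.8 to 63.0% for tRNA-Leu-AAG against 86.7 to 93.0% for the mitochondrial tRNAs.

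In edgeR's test of the log2 odds of a CCA end, which keeps a shift common to all tRNAs, 0 of 5 leucine isoacceptors were called and 1 had an unadjusted p below 0.05. Over all nuclear anticodons 1 of 47 was called (2.13%), Cys-GCA. The leucine estimates were all negative, at −0.75 for tRNA-Leu-TAG (SE 0.38), −0.69 for tRNA-Leu-AAG (SE 0.38) and −0.68 for tRNA-Leu-CAA (SE 0.38), each with an edgeR adjusted p of 0.123. tRNA-Leu-CAG had −0.49 (SE 0.38, edgeR adjusted p = 0.229) and tRNA-Leu-TAA −0.44 (SE 0.33, edgeR adjusted p = 0.223). Their median of −0.68 was close to the median of −0.69 over all 47 anticodons, which are not independent in the same brains. Of the 6 transcripts 0 were called, against 1 of 66 over all (1.52%), and TAG-1 (−0.77) and TAG-2/3 (−0.61) had similar estimates. All 5 isoacceptors and all 6 transcripts were called without old female 2, and in no other fit that left out a brain. In the full fit the estimates of all 47 anticodons and all 66 transcripts were negative. The number called over all of them without old female 2 is not given, so these calls cannot be read as a trait of leucine.

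Relative to the mean charging of all nuclear tRNAs of a brain, no leucine isoacceptor passed the test between the ages. In this fit, where the CCA and CC totals of each brain serve as library sizes, edgeR called 0 of 5, none of which had an unadjusted p below 0.05, and 1 of 47 anticodons (2.13%), Gln-TTG. Estimates ran from −0.13 for tRNA-Leu-TAG to 0.19 for tRNA-Leu-TAA (SE 0.10, edgeR adjusted p = 0.703).

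Abundance, charging and end trimming were also read as 1 value, leucine CCA reads as a share of the nuclear reads with any end. This value falls with C and Absent ends as well as with abundance and charging. Leucine CCA reads were 4.08, 3.22, 3.77 and 3.11% of the nuclear reads in young brains and 2.21, 2.46, 1.51 and 3.36% in old brains. The means were 3.55% ± 0.458 and 2.38% ± 0.765 (SD, n = 4 each), with old female 2 inside the young range (two-sided exact permutation p = 0.0857). The difference without old female 2 is not given. CCA reads were 56.8 and 43.0% of the leucine reads with any end, young and old (exact permutation p = 0.114). For the other nuclear tRNAs they were 59.0 and 45.5% (exact permutation p = 0.0857), so a lower share of CCA ends was not particular to leucine.

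C ends of leucine tRNAs were 5.61, 10.4, 7.73 and 10.4% of their reads in young brains and 14.9, 15.6, 29.7 and 6.95% in old brains. Old female 1 had the most and old female 2 fewer than 3 of the 4 young brains. The means of 8.53% ± 2.32 and 16.8% ± 9.47 (SD, n = 4 each) did not differ beyond the spread (two-sided exact permutation p = 0.114), while the remaining brains differed by 11.6 points once old female 2 was left out (exact permutation p = 0.0286). Since those old brains all lay above every young brain, this p follows from which brain was left out. Without old female 1 the difference was 3.97 points. tRNA-Leu-AAG had the most C ends, with means of 11.01% in young and 20.4% in old brains, and tRNA-Leu-CAG the fewest, with 5.41 and 10.01%. In edgeR 0 of 5 isoacceptors were called for C ends, with estimates of 0.75 to 1.04 on the log2 odds scale, and 0 of 47 anticodons (0%), of which 4 had an unadjusted p below 0.05, none from leucine. All 5 were called without old female 2, a fit for which the number called over all anticodons is not given. In the full fit 0 of the 47 estimates were negative, so a rise in C ends is not particular to leucine. Relative to the C ends of all nuclear tRNAs, 0 of 5 and 0 of 47 (0%) were called in edgeR, with 2 of 47 at an unadjusted p below 0.05 and none of them from leucine. Absent ends did not overlap between the ages for tRNA-Leu-CAA, at 2.69% ± 0.321 and 3.94% ± 1.19, and for tRNA-Leu-TAA, at 2.12% ± 0.103 and 3.76% ± 1.49 (SD, n = 4 each; exact permutation p = 0.0286 for both). That was so for 19 of 47 anticodons (40.4%), all higher in old brains.

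The mitochondrial leucine tRNAs, charged by a separate enzyme, were read in the same libraries. Their charged share was 90.4, 86.6, 89.4 and 89.0% in young brains and 89.7, 86.7, 89.9 and 93.0% in old brains, and the ages overlapped (88.8% ± 1.62 and 89.8% ± 2.54, exact permutation p = 0.514). The nuclear leucine tRNAs stood −25.4 ± 3.90 points from them in young and −36.9 ± 8.79 points in old brains (SD, n = 4 each). That distance differed by −11.6 points between the ages (two-sided exact permutation p = 0.0571). The ages overlapped, with old female 2 at −27.4 points, inside the young range of −29.9 to −20.5. Without old female 2 the difference was −14.7 points. For all 8 brains on an alternative scale, log2 odds, the distance differed by −0.80 (exact permutation p = 0.0286). Old female 2 had the highest mitochondrial charged share, and how far the result in log2 odds rests on that was not tested. The charged share of the other nuclear tRNAs differed by −10.4 points between the ages (exact permutation p = 0.0857), near the −10.6 points of leucine. A lower mean charged share in old brains was therefore not particular to leucine. The same distance for the other nuclear tRNAs was not tested. The spike-in, added as a fixed mix of CCA and CC ends after oxidation, read as 77.2% ± 0.468 charged in young and 78.8% ± 1.14 in old libraries (exact permutation p = 0.0571), the opposite direction to the nuclear leucine tRNAs.

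Valine and isoleucine tRNAs, whose synthetases are close relatives of the leucine enzyme, and serine tRNAs, which share the long variable arm, were read for comparison. Their charged shares were 69.5% ± 3.67 and 59.5% ± 10.4 for valine (exact permutation p = 0.114), 67.5% and 56.5% for isoleucine (exact permutation p = 0.0857), and 53.4% ± 10.6 and 41.6% ± 8.61 for serine (exact permutation p = 0.143), young and old. In edgeR none of the 3 valine, 2 isoleucine and 4 serine anticodons was called in abundance, charging, relative charging or C ends. Within the pool of their amino acid, 1 was called over all reads, tRNA-Ile-TAT, which gained share. Among CCA reads both isoleucine anticodons were called, whose shares mirror each other, with log2 changes of 0.27 for tRNA-Ile-TAT (edgeR adjusted p = 0.0176) and −0.11 for tRNA-Ile-AAT (edgeR adjusted p = 0.0230). Whether leucine differs from them was not tested.

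The deposited table held 8 genes for tRNA-Leu-CAG, 6 for AAG, 5 for CAA, 4 for TAG and 2 for TAA, and with the mean share of nuclear reads r was 0.905 and rho 0.900 over the 5, against 0.579 and 0.730 over 49 nuclear anticodons, as a description. The RefSeq annotation of another assembly (NfurGRZ-RIMD1) lists more copies, 684 leucine tRNA genes out of 5622 tRNA genes. It lies on a different build from the reference of the reads, so only gene counts and neighbours were taken from it. Of its 191 tRNA-Leu-CAG genes 123 had a tRNA-Leu-TAG gene as the next annotated gene on a side, and of 88 tRNA-Leu-TAG genes 79 had a tRNA-Leu-CAG gene. Of 189 tRNA-Leu-AAG genes 179 lay beside another of their own kind. Of 189 tRNA-Leu-CAA genes 176 lay beside a lysine tRNA gene, and of 27 tRNA-Leu-TAA genes 17 beside another of their own.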

How the data were processed

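tRNA-seq counts of 8 killifish brains (4 young, 4 old) were used, with age, sex and replicate number from the sample labels. The authors trimmed reads with cutadapt 3.5 and counted them with mim-tRNAseq. They deposited raw, unnormalized counts per anticodon, and per transcript or cluster and 3′ end. The number of per-sample columns left unused was 0. Counting merges near-identical transcripts.

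The ages were compared in R 4.3.3 and Python 3.11.15 (scipy 1.17.1). Counts were compared by the quasi-likelihood test of edgeR 4.0.16, with age in the model and TMM factors, over all nuclear features with at least 10 counts in at least 4 brains, and adjusted by Benjamini-Hochberg over all of them (threshold 0.05). Pool shares used the log total of the same amino acid as an offset, so a shift of the total is removed. Charging and C ends were fitted on pairs of end counts with an effect for each brain, for features with at least 100 such reads in every brain. SE is the absolute estimate over the square root of F. Shares were compared by two-sided exact permutation over 70 relabellings, and relations by all 40320 permutations. Log2 odds used a pseudocount of 0.5. The labels do not say whether the fish shared tanks or litters, and p-values measure the spread between these brains. Brains of an age differed by more than counting error (54.8 to 611.8 as the chi-square divided by its degrees of freedom, 12 pairs), so no library held the same counts as another up to sampling noise, which does not exclude separate libraries of 1 fish.

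Alternatives were DESeq2 1.42.0, limma 3.58.1, library size scaling, no low-count filter, sex or replicate number in the fit, spike-in scaling and leaving out each brain. All 5 isoacceptors and all 6 transcripts are named, and other tRNAs only behind small counts or as 1 comparison. The members and lists were chosen with earlier results of these data known. Relative C ends, the comparison with other nuclear tRNAs, CCA-read composition, transcript abundance and shares without tRNA-Leu-CAG were added after seeing the data.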

Additional observations from a re-analysis of the deposited data

Results flagged for a closer look

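Over 224 groups of 4 brains from 112 measures of leucine tRNAs, the comparison tRNAs and the spike-in, 3 held a brain far from the others of its age, where chance gives about 1 in 20. tRNA-Leu-CAA took 16.5% of the leucine reads in young male 1, against 15.5% in the next young brain. tRNA-Leu-AAG took 28.8% of the leucine CC reads in young male 1, against 32.0% in the next. In TAG-2/3, Absent ends were 3.504% of the reads in young male 1 and 2.90% in the next young brain. In the same cluster old minus young Absent ends came to −1.03 points for males but 1.62 points for females, 2.65 points apart. An exact test that relabelled ages within each sex gave p = 0.0556, the smallest its 36 relabellings allow, so the difference between the sexes did not pass the threshold.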

How the results depend on the processing

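The design limits exact tests to p = 0.0286 and sign-flip tests on 4 pairs to 0.125, and depth limited TAG-2/3 and the separation of young male 2 from old female 2 in the pool share of tRNA-Leu-CAG. Replicate numbers did not pair the brains: deviations of same-numbered brains correlated at −0.366 to 0.197, and 2 of 8 brains correlated best with their own number. With the replicate block in edgeR, 0 pool shares and 0 transcripts were called, while the abundance of tRNA-Leu-CAG (−0.50, adjusted p = 0.0119) and its share of CCA reads (−0.16, adjusted p = 0.0157) still were. The leucine share of nuclear reads differed by −0.699 points in a paired sign-flip test (exact p = 0.125), by −0.131 without tRNA-Leu-CAG and by −0.036 (log2) per spike-in read. The number of pool shares called was 1 (CAA) without the low-count filter or with sex in the fit and 0 by exact permutation (adjusted p = 0.118). For these settings, as for the replicate block, the numbers called over all nuclear features are not given. The distance between nuclear and mitochondrial leucine charging was −0.80 in log2 odds.

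Leaving out each brain gave 0 to 1 isoacceptor and 0 to 2 transcripts called in abundance, 0 to 3 pool shares, 0 to 5 isoacceptors and 0 to 6 transcripts in charging, and 0 to 5 in C ends, each upper count in the last 3 being without old female 2. In relative charging and relative C ends it gave 0 leucine isoacceptors in all 8 fits. It moved the charged share from −14.8 to −6.90 points, C ends from 3.97 to 11.6 points and the nuclear minus mitochondrial distance from −14.7 to −7.86 points. The numbers called over all nuclear features without single brains are not given, so those counts cannot be read as a trait of leucine.

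Signs turned only for estimates that were not called. In abundance tRNA-Leu-CAA had −0.0074 with mitochondrial tRNAs in the fit and −0.00098 to 0.047 without single brains (its cluster CAA-1/2/3 had −0.0014 to 0.051), and tRNA-Leu-TAG had −0.052 to 0.0042. The pool share of tRNA-Leu-TAA was −0.010 in limma and −0.011 with the replicate block, and −0.11 to 0.11 without single brains. tRNA-Leu-CAA had 0.013 in relative charging in limma. Without single brains the CCA share of tRNA-Leu-AAG was −0.019 to 0.028, and relative C ends were −0.068 to 0.086 for tRNA-Leu-AAG, −0.0096 to 0.12 for CAA and −0.18 to 0.056 for CAG. Over all settings tried for single leucine tRNAs, 478 values kept direction and side of the threshold, 36 lost a call, 17 gained one and 21 turned sign.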
